A study of Mus musculus with 6 samples.

Results

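CAR and PXR, encoded by Nr1i3 and Nr1i2, were analysed together with the Cyp2b and Cyp3a genes that these receptors control in mouse liver. The members were the 10 rows of the gene table with the symbols Nr1i2, Nr1i3, Cyp2b9, Cyp2b10, Cyp2b13, Cyp3a11, Cyp3a13, Cyp3a16, Cyp3a25 and Cyp3a44, of 17460 gene symbols in all. They were chosen by name, with earlier results of these data known. Livers of 6 C57BL/6 mice were sequenced for polyA RNA. The mice were aged 9 months and had eaten a NASH diet, which brings on fatty liver with inflammation and fibrosis, for 24 weeks. The 3 Blnc1 LKO mice were Cas9 transgenic mice in which an adenoviral vector carrying guide RNAs against the long noncoding RNA Blnc1 had been given by tail vein. The 3 control mice are labelled only as control, and the vector they received is not stated for the diet used here. The vector reaches hepatocytes and few other liver cells, so the RNA of a Blnc1 LKO liver comes from edited hepatocytes together with cells that were not edited.

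CAR and PXR are nuclear receptors that sense drugs, steroids and bile acids in hepatocytes. Each pairs with the retinoid X receptor on repeats of a short core motif in the DNA and switches on enzymes and transporters that clear the ligand. Cyp2b10 is the classic target of CAR and Cyp3a11 that of PXR in the mouse, while several other Cyp2b and Cyp3a genes are known more for their higher expression in female than in male liver.

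None of the 10 genes passed an adjusted p of 0.05 between Blnc1 LKO and control livers by limma, which was fitted to log2(value + 1) over 17297 genes and called 1 gene in all (0.00578%), the hepcidin gene Hamp. Both receptors differed little, with a log2 fold change of -0.09 for Nr1i2 and 0.13 for Nr1i3. Among the P450 genes, Cyp3a44, Cyp2b13, Cyp2b10, Cyp3a16 and Cyp3a11 had log2 fold changes from 0.48 to 1.33, whereas Cyp3a25, Cyp2b9 and Cyp3a13 lay between 0.02 and 0.09. The livers within a group differed widely for the Cyp2b genes, and 1 control liver and 1 Blnc1 LKO liver held most of the lowest and highest values.

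The reads assigned to the listed genes numbered from 65384969 to 89350181 per liver. A value is the number of reads of a gene divided by a size factor of its liver, so 1 read was worth between 0.836 and 1.19. Hepatocyte markers were abundant in every liver, with albumin (Alb) alone taking from 5.06% to 5.98% of reads. In all 6 livers 4 genes of the Y chromosome gave at least 12114 reads and Xist at most 22, the pattern of male mice. The targeted RNA was not analysed here, so the labels were not checked against it. RefSeq gives Blnc1 as a synonym of the protein-coding gene Paqr9, which the study treats as a neighbouring gene, and Paqr9 was listed at 16950, 18810.3 and 15156 for control and at 18268, 15663 and 20027 for Blnc1 LKO mice. In bulk liver, fewer cells of a type and less RNA per cell cannot be told apart.

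The Cyp3a11, Cyp3a16 and Cyp3a44 promoters are shown because Cyp3a11 far exceeds the other two in level although all lie in 1 cluster on chromosome 5 and their sequences are related. RefSeq on GRCm38.p6, the build also called mm10, held a window from 250 bases before to 50 bases after the start site for all 10 genes. The windows printed here lie at chr5:145879805-145880104, chr5:145469674-145469973 and chr5:145805825-145806124, all on the - strand and read 5′ to 3′. Capitals mark AGGTCA and AGTTCA on either strand, which are core motifs that CAR and PXR can use, and the direct repeat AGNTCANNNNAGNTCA.
Cyp3a11: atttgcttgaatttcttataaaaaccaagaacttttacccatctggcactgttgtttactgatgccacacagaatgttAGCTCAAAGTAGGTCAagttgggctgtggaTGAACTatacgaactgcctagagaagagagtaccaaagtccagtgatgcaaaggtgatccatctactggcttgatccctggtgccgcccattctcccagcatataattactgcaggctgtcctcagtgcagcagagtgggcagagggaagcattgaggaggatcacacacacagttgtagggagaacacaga
Cyp3a16: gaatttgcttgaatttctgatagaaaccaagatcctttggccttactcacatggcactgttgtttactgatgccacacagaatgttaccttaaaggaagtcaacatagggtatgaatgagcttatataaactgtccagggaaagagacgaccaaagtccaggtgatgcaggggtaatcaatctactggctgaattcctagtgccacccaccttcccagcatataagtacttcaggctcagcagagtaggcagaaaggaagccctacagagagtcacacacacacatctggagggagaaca
Cyp3a44: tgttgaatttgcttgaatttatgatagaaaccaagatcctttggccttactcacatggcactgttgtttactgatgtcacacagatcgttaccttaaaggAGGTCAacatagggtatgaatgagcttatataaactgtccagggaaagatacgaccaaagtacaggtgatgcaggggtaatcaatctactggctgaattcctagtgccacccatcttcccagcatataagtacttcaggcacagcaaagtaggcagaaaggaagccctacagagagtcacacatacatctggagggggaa

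The direct repeat of 2 core motifs with 4 bases between them was found in the Cyp3a11 window alone among the 10 genes, starting at position -172 from the start site and overlapping the AGGTCA at -162. On either strand this repeat occurs in 41 of 32851 mouse promoter windows of the same length, or 0.125%. Cyp3a11 also held an AGTTCA on the opposite strand at -142, a motif found in 14% of windows, and Cyp3a44 held 1 AGGTCA at -150, a motif found in 16.3%. Neither motif is in the Cyp3a16 window, which was otherwise identical to the Cyp3a44 window in 284 of 304 aligned positions (93.4%). Cyp3a11 matched Cyp3a16 in 74.4% and Cyp3a44 in 71.2% of aligned positions. Cyp3a25 held an AGGTCA on each strand, and Cyp3a13, Nr1i2 and Nr1i3 held neither motif. A match is a description of these letters and not a site of binding.

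The Cyp2b windows lie on the + strand at chr7:25897408-25897707 for Cyp2b10, chr7:26173159-26173458 for Cyp2b9 and chr7:26061245-26061544 for Cyp2b13. They are shown because Cyp2b9 and Cyp2b13 are almost the same over this stretch, with the same marks in capitals.
Cyp2b10: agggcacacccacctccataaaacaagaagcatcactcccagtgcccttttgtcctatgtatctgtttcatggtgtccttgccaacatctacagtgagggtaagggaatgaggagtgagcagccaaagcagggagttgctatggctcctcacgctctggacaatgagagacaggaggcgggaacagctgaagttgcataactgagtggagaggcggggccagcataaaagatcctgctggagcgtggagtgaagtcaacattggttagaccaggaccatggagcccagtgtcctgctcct
Cyp2b9: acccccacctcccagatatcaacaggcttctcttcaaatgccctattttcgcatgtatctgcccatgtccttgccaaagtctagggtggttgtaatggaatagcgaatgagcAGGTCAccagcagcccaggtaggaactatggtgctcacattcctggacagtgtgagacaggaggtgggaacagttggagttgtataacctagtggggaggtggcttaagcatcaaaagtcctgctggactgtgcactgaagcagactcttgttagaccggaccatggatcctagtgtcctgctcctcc
Cyp2b13: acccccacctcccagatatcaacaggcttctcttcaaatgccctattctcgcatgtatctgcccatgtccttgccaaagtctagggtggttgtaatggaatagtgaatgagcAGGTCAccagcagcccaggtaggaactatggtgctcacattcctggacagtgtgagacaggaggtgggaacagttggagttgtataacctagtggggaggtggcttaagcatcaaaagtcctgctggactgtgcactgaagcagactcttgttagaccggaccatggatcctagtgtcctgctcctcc

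Cyp2b9 and Cyp2b13 were identical in 298 of 300 bases (99.3%). With positions counted from 1 at the 5′ end of the window and the base of Cyp2b13 first, the differences are C48T and T104C. Both windows held an AGGTCA at -138, and Cyp2b10, which matched each of them in 70.7% of aligned positions, held neither motif. The distal enhancer through which CAR is known to act on Cyp2b10 lies outside these windows and was not analysed here. Direct repeats with 3 bases between the motifs (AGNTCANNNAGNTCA, in 0.07% of windows), everted repeats (TGANCTNNNNNNAGNTCA, in 0.0304%) and the STAT5 core TTCNNNGAA (in 8.3%) were found in none of the 10 windows on either strand, which says only that those letters are not in these stretches. TATAAA, in 13.6% of windows, was found in those of Cyp3a11, Cyp3a16 and Cyp3a44.

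Per kilobase of exon sequence the 10 genes spanned a wide range. Cyp3a11, the main P450 for drugs and steroids in mouse liver, was highest with a median over the 6 livers of 43374 per kilobase, followed by Cyp3a25 at 17636, Cyp3a13 at 4468, Nr1i2 at 2893 and Nr1i3 at 1523. Cyp2b9 had a median of 867 per kilobase, Cyp2b13 of 77.0, and Cyp3a16, Cyp3a44 and Cyp2b10 of 8.38, 7.88 and 7.25. Every liver kept the order from Cyp3a11 to Cyp2b13, but the ranges of Nr1i3 and Cyp2b9 overlapped between livers. The place of Nr1i3 below Nr1i2 is uncertain, since exons of another gene, Tomm40l, cover 74.85% of the exon bases of Nr1i3. Before division by length, Nr1i3 exceeded Nr1i2 in Blnc1 LKO replicate 1, at 9046 against 7207. The order of Cyp3a16, Cyp3a44 and Cyp2b10 changed between livers, with Cyp3a44 above Cyp2b10 in 3 of 6 and Cyp2b10 above Cyp3a16 in 3 of 6. Cyp2b10, the textbook readout of CAR, thus rested on 6 to 32 reads per liver, Cyp3a44 on 4 to 31 and Cyp3a16 on 7 to 20.

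**Figure D1:**
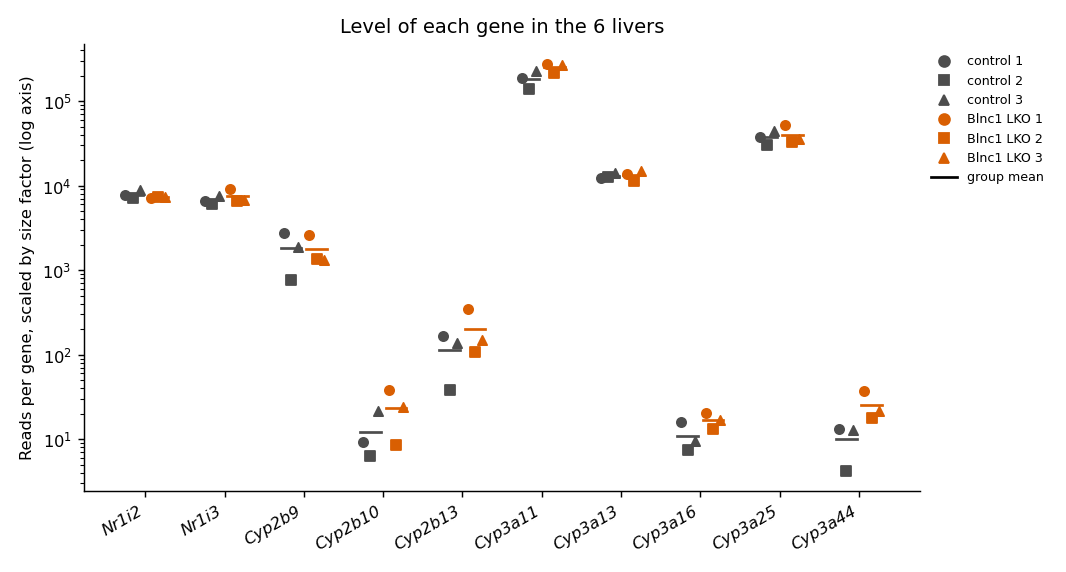
Reads per gene scaled by the size factor of the liver (log axis) for the 10 genes, with a point for each liver and a bar at the mean of each group of 3. Cyp3a11 lies between 138054 and 272482, whereas Cyp2b10, Cyp3a16 and Cyp3a44 reach at most 38.1.

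Nr1i2, which encodes PXR, lies on the - strand at chr16:38248323-38294824 in GENCODE M21. Its values were 7677, 7110.3 and 8762 in control mice and 7207, 7408 and 7362 in Blnc1 LKO mice. The 3 Blnc1 LKO values lay within the control range, and their SD of 105 compared with 839 in control (n = 3 each). On the log2 scale the fold change was -0.09 with a standard error of 0.076 (limma, adjusted p = 0.971), and ranged from -0.16 without control replicate 2 to -0.012 without control replicate 3.

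Nr1i3, which encodes CAR, lies on the + strand at chr1:171213970-171220701. It was measured at 6639, 6023 and 7629 in control livers and at 9046, 6561 and 6804 in Blnc1 LKO livers. Only Blnc1 LKO replicate 1 stood above the control range. Its log2 fold change of 0.13 had a standard error of 0.13 (limma, adjusted p = 0.973), and turned to -0.011 without Blnc1 LKO replicate 1. Exons of Tomm40l on the opposite strand cover 74.85% of the exon bases of Nr1i3, and the library kit does not mark strand, so reads there could come from either gene. Tomm40l, which encodes a mitochondrial import protein, had values of 7866, 7359 and 8976 in control mice and 9887, 7519 and 8479 in Blnc1 LKO mice and ranked the 6 livers in the same order as Nr1i3 did.

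Cyp2b9, on chr7:26173411-26210661, encodes a steroid hydroxylase known for female-predominant expression. Control mice gave 2780.3, 766 and 1903, and Blnc1 LKO mice gave 2619, 1350.1 and 1315. Control replicate 2 was the lowest and control replicate 1 the highest of the 6, so the control range enclosed the Blnc1 LKO range. With limma its log2 fold change was 0.07 with a standard error of 0.44 (adjusted p = 0.999), and the count models gave the opposite sign, at -0.055 with edgeR and -0.045 with DESeq2. It was -0.46 without control replicate 2 and -0.26 without Blnc1 LKO replicate 1.

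Cyp2b10, on chr7:25897620-25926624, is the gene most often used to read CAR activity. It was listed at 9.32, 6.39 and 21.3 in control and at 38.1, 8.46 and 24.2 in Blnc1 LKO livers. Blnc1 LKO replicates 1 and 3 exceeded every control liver, whereas replicate 2 lay among the controls. Its log2 fold change of 0.82 had a standard error of 0.59 (limma, adjusted p = 0.968), and ranged from 0.37 to 1.40 as each liver was left out.

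Cyp2b13, on chr7:26061497-26096197, is a close relative of Cyp2b9. Values of 168, 38.4 and 138 in the control group stood against 345, 109 and 150.4 in the Blnc1 LKO group. Blnc1 LKO replicate 1 was the highest and control replicate 2 the lowest, while the other 4 livers lay between 109 and 168. This gave a log2 fold change of 0.88 with a standard error of 0.58 (limma, adjusted p = 0.951), which was 0.22 without control replicate 2 and 0.40 without Blnc1 LKO replicate 1. In 27.27% of its 50-base windows the Cyp2b13 transcript is shared with another gene, against 11.17% for Cyp2b9 and 8.70% for Cyp2b10. Reads of these genes could therefore be left out in counting or be counted for a related gene.

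Cyp3a11, on the - strand at chr5:145854426-145879964, is the best known target of PXR. The 3 control values were 185059, 138054 and 225542 and the 3 Blnc1 LKO values 272482, 216267 and 264795, or 182885 ± 43785 against 251181 ± 30480 (SD, n = 3 each). Blnc1 LKO replicates 1 and 3 exceeded every control, and replicate 2 lay below control replicate 3, so the groups overlapped by 1 liver. Its log2 fold change was 0.48 with a standard error of 0.18 (limma, unadjusted p = 0.0288, adjusted p = 0.84). DESeq2 on the recovered reads gave an adjusted p of 0.255, where it called 84 of 15617 genes (0.538%). With the replicate number as a block, DESeq2 gave an adjusted p of 0.00138. The labels do not say that equal numbers mark paired livers. Without control replicate 2 the log2 fold change was 0.29.

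Cyp3a25, on chr5:145977194-146009618, is another abundant liver P450 of this cluster. It was measured at 37472, 30375 and 44155 in control mice and at 51799, 32395 and 35999.7 in Blnc1 LKO mice. Blnc1 LKO replicate 1 was the highest liver, whereas the other two lay inside the control range. Its log2 fold change of 0.09, with a standard error of 0.18 (limma, adjusted p = 0.986), was -0.11 without Blnc1 LKO replicate 1 and -0.052 without control replicate 2. Cyp3a25 shares 26.84% of its 50-base windows with other genes, mostly with Cyp3a59.

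Cyp3a13, a P450 also expressed in intestine, lies apart from the cluster at chr5:137892932-137921619 and shares no 50-base window with another gene. Values were 12428, 12758 and 14148 for the control mice and 13655, 11408 and 15098 for the Blnc1 LKO mice. The Blnc1 LKO range enclosed the control range. A log2 fold change of 0.02 with a standard error of 0.10 resulted (limma, adjusted p = 0.997), which was -0.015 without control replicate 1 and -0.069 without Blnc1 LKO replicate 3.

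Cyp3a16, at chr5:145436309-145469723, is a P450 best known from fetal liver. Its values of 15.8, 7.46 and 9.59 in control and 20.2, 13.2 and 16.7 in Blnc1 LKO livers overlapped, since control replicate 1 lay above Blnc1 LKO replicate 2. On the log2 scale the difference was 0.61 with a standard error of 0.36 (limma, adjusted p = 0.937), and it ranged from 0.39 without control replicate 2 to 0.88 without control replicate 1. Cyp3a44, at chr5:145773983-145805874, is known as a female-predominant P450. It was listed at 13.1, 4.26 and 12.8 in control mice and at 36.9, 17.9 and 21.7 in Blnc1 LKO mice, from 4 to 31 reads. Every Blnc1 LKO liver lay above every control liver, which held for 1 of the 10 members and for 925 of 17297 genes (5.35%).

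For Cyp3a44 the log2 fold change was 1.33 with a standard error of 0.46 (limma, unadjusted p = 0.0192, adjusted p = 0.824), on a scale whose pseudocount of 1 understates changes of genes this low. It ranged from 0.86 to 1.57 as each liver was left out in turn. Cyp3a44 shares 26.45% of its 50-base windows with other genes, Cyp3a41a among them.

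**Figure D2:**
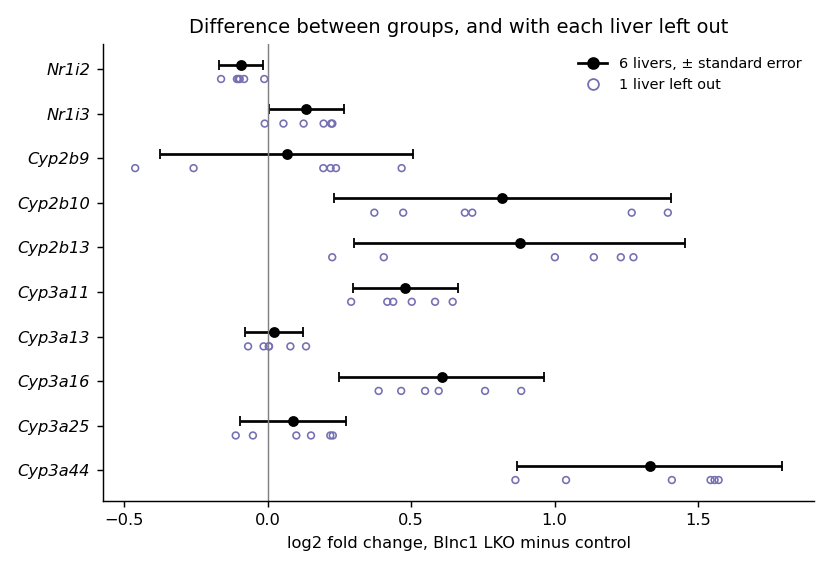
log2 fold change of each gene, Blnc1 LKO minus control, with its standard error over 6 livers (filled points) and the values with 1 liver left out (open points). Cyp3a44, Cyp2b13, Cyp2b10, Cyp3a16 and Cyp3a11 stay above 0 and Nr1i2 below 0 with any liver left out, whereas Cyp2b9 moves between -0.46 and 0.47.

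Taking the 10 genes as a group, 9 had a log2 fold change above 0 with limma and 1 below, where 49.6% of all genes were above 0. The median was 0.31, against -0.00 over all genes tested. With edgeR and with DESeq2 the number above 0 was 8, and it was 7 without control replicate 2 and 6 without Blnc1 LKO replicate 1. At an unadjusted p under 0.05 there were 2 members, Cyp3a11 and Cyp3a44, both higher, where 5.68% of all genes reached that level, 2.94% higher and 2.74% lower. No member reached it without control replicate 2 or without Blnc1 LKO replicate 1, and 1 did without Blnc1 LKO replicate 3. The 10 genes are related in sequence or in control and are not independent of each other.

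The low and high values gathered in certain livers. Control replicate 2 had the lowest value of the 6 livers for 9 of the 10 members, although it was the lowest for 11.89% of all genes. Blnc1 LKO replicate 1 had the highest value for 7 of 10, and it was the highest for 25.55% of all genes. Averaged over the 10 genes on the log2 scale, control replicates 1, 2 and 3 stood at 0.24, -0.54 and 0.31 from the control mean, and Blnc1 LKO replicates 1, 2 and 3 at 0.85, 0.06 and 0.39. Blnc1 LKO replicate 2 therefore lay among the control livers by this average.

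**Figure D3:**
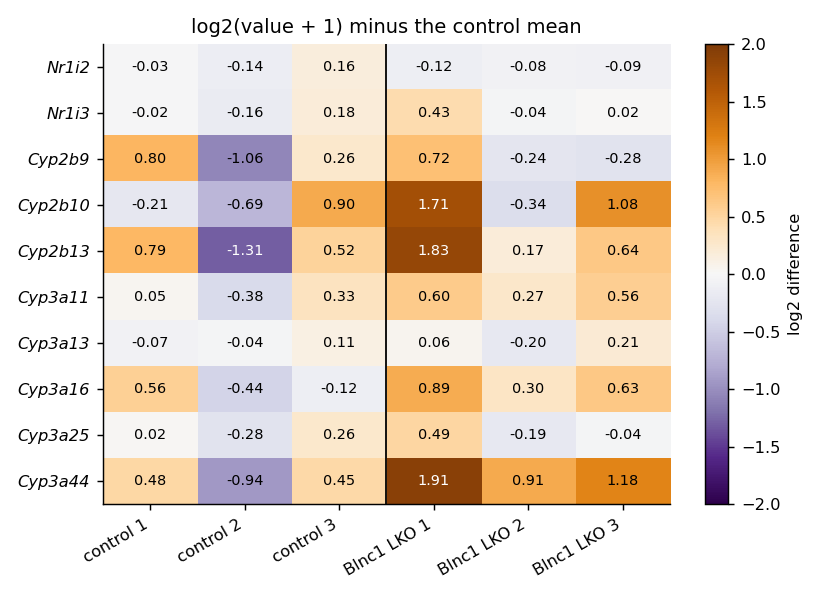
log2(value + 1) of each gene in each liver minus its mean over the 3 control livers, with the number in each cell. Control replicate 2 is at or below 0 for all 10 genes, down to -1.31 for Cyp2b13, and Blnc1 LKO replicate 1 reaches 1.91 for Cyp3a44.

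Values of the members tended to rise and fall together from liver to liver, but no share over all pairs of genes was computed beside this. Over the 6 livers, 43 of 45 pairs of members had a Pearson correlation above 0 on log2 values, with a median of 0.677 and a range from -0.258 to 0.971. The highest was that of Nr1i3 with Cyp3a25, and Nr1i3 had 0.882 with Cyp2b10. With the group means removed the median was 0.739, all 45 pairs were above 0, and the highest was that of Cyp2b13 with Cyp3a44 at 0.994. Nr1i2 with Cyp3a11 was at 0.156 over the 6 livers and at 0.806 with the group means removed, and Nr1i2 with Nr1i3 at 0.198 and 0.442. Points from 1 liver share its library and its scaling, and some of these genes share reads, so the correlations are given as a description.

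Among 12481 other genes with a mean value of at least 100, those most like Nr1i3 over the 6 livers were Dctpp1 (r = 0.994), Mcee, Ppm1b, Mysm1 and Tyw5. Those most like Nr1i2 were Sf1 (r = 0.980), Fbxo28, Rcn2, Mex3b and Morc3. For Cyp2b10 they were Nf1 (r = 0.996), Fgfr1op, Hsd3b2, Morf4l1 and Aldh7a1, and for Cyp3a11 they were Vdac2 (r = 0.981), Fam216a, Sema4g, Psmf1 and 1190007I07Rik. With 6 livers, high correlations were common: 326 genes exceeded 0.9 with Nr1i3, 244 with Cyp2b10, 62 with Cyp3a11 and 52 with Nr1i2.

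The mix of enzymes within each family was compared by ratios inside a liver, which do not depend on the scaling between livers. Cyp2b9 was 16.6, 19.97 and 13.7 times the value of Cyp2b13 in control livers and 7.59, 12.4 and 8.74 times in Blnc1 LKO livers. The ratio was thus lower in every Blnc1 LKO liver, although neither gene alone separated the groups and their promoter windows differ in 2 bases. Cyp3a11 was 4.94, 4.54 and 5.11 times Cyp3a25 in control and 5.26, 6.68 and 7.36 times in Blnc1 LKO livers. It was 14.9, 10.8 and 15.9 times Cyp3a13 in control and 19.95, 18.96 and 17.5 times in Blnc1 LKO livers. In both cases every Blnc1 LKO liver lay above every control liver. Within the Cyp2b family, Cyp2b9 over Cyp2b10 and Cyp2b10 over Cyp2b13 overlapped between groups. So did the ratios of Cyp3a16 with Cyp3a11, Cyp3a13, Cyp3a25 and Cyp3a44, and that of Cyp3a13 with Cyp3a25.

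The ratio of the receptors, Nr1i2 over Nr1i3, was 1.16, 1.18 and 1.15 in control and 0.797, 1.13 and 1.08 in Blnc1 LKO livers. It was lower in each Blnc1 LKO liver, by a small margin in replicate 2. Reads counted for Nr1i3 could come in part from Tomm40l, so this ratio may not be that of the receptors alone. In all, 12 of the 45 ratios between members did not overlap between groups (26.7%), against 11.1% of all pairs of genes. Of these 12, 6 involved Cyp3a44 and 5 involved Cyp3a11, so they are not independent, and ratios of genes that share reads can be shifted by the counting.

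**Figure D4:**
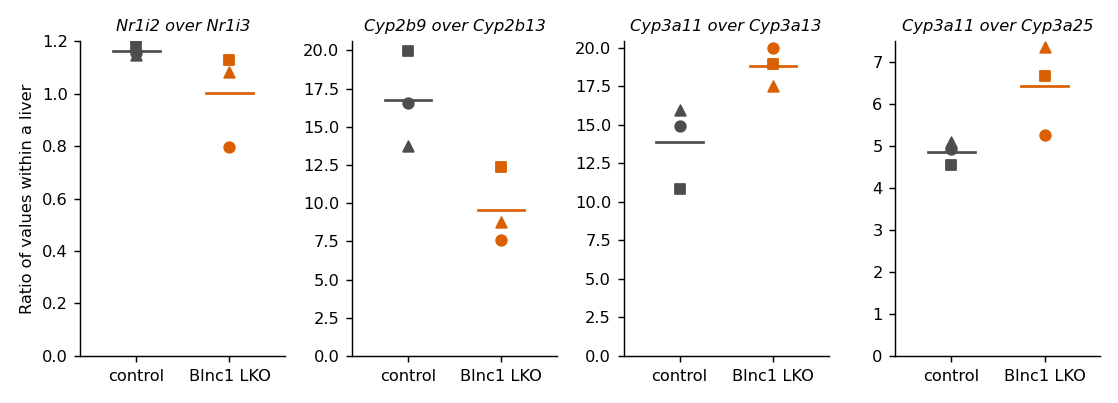
Ratio of the values of a pair of genes within each liver, from 0, with circles, squares and triangles for replicates 1, 2 and 3 and a bar at the group mean. Cyp2b9 over Cyp2b13 lies between 13.7 and 19.97 in control and between 7.59 and 12.4 in Blnc1 LKO livers. The other panels also show no overlap, and ratios that overlapped between groups are not drawn.

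Summed over the 3 Cyp2b members, the values were 2957, 811 and 2063 in control and 3003, 1468 and 1490 in Blnc1 LKO livers, of which Cyp2b9 made up from 87.2% to 94.5%. The sum differed by 0.14 on the log2 scale, and by -0.40 without control replicate 2. Over the 5 Cyp3a members the sum was 234988, 181199 and 283868 in control and 337993, 260101 and 315931 in Blnc1 LKO livers. Cyp3a11 made up from 76.2% to 79.5% of it in control and from 80.6% to 83.8% in Blnc1 LKO livers, and the sum differed by 0.40 on the log2 scale.

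Of the other genes of both families, Cyp3a59 was measured at 2256, 1709 and 3095 in control and 3017, 1927 and 1454 in Blnc1 LKO livers, and Cyp3a57 at 61.5, 43.7 and 37.3 against 48.8, 41.3 and 44.3. Neither separated the groups, with log2 fold changes of -0.17 and -0.05. Cyp3a41a, at 0, 2.13 and 1.07 in control and 2.38, 2.82 and 5.85 in Blnc1 LKO livers, shares 98.61% of its windows with other genes, so its value is uncertain. Cyp2b19, a skin P450, had at most 3 reads in any liver. No row for Cyp2b23 or Cyp3a41b was used here.

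The pathway around the receptors was read from lists of genes, which were chosen with earlier results of these data known. Counts from these lists, set beside the share over all genes, are a description and not a test. Over all genes 5.68% were at an unadjusted p under 0.05 with limma. Some genes are in more than 1 list, such as Cyp1a2, Cyp2a4, Sult2a1 and Cyp3a41a, so the lists are not separate. Of 23 partners and coregulators of CAR and PXR, among them the retinoid X receptors, Hnf4a and the coactivators, 1 was at an unadjusted p under 0.05. This was Cebpb, a liver transcription factor, at -0.22 on the log2 scale (limma, adjusted p = 0.84), and the next was Foxa1, a pioneer factor, at 0.25. P450 enzymes need electron donors and haem, and 14 genes of electron transfer and haem metabolism were listed. Of these 14, Hmox1 alone was at that level, the gene of a haem oxygenase, which breaks haem down. Its values were 4198, 4162 and 3438 in control and 4925, 4612 and 8018 in Blnc1 LKO livers. The median log2 fold changes of these lists were 0.02 and 0.04.

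The other phase I targets of CAR and PXR had 7 of 18 higher at an unadjusted p under 0.05 and none lower. At any p, log2 fold changes were above 0 for 12 of the 18 and below 0 for 6, down to -0.75 for Cyp2a4. Over all genes these shares were 2.94% and 2.74%. The median of the list was 0.31, as for the 10 members. None of the 18 passed the adjusted p. The genes named next are those of smallest p in the list, and all were higher. Cyp2c54, an epoxygenase, had values of 872, 1588 and 1928 in control and 8226, 1792 and 3753 in Blnc1 LKO livers. Its log2 fold change was 1.46 with a standard error of 0.50 (limma, adjusted p = 0.824). Cyp2c50 had 0.76 (standard error 0.25), Ces2c, a carboxylesterase, 0.51 (standard error 0.15), and Cyp2c65, with at most 12 reads in any liver, 2.16. By the mean over this list, Blnc1 LKO replicates 1, 2 and 3 stood at 0.79, 0.02 and 0.33 from the control mean and control replicate 2 at -0.23, the same order of livers within each group as for the 10 members.

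Phase II targets, which conjugate the products of phase I, included 3 higher and 1 lower of 19 at an unadjusted p under 0.05, with a median of 0.06. Over all genes the shares at that level were 2.94% higher and 2.74% lower. Ugt1a1, which conjugates bilirubin, had a log2 fold change of 0.70 and Gsta1, a glutathione transferase, -0.35. Of 7 transporters 1 was higher at that level, Abcg2 at 0.21, and 1 lower, Abcb1a at -0.28, with a median of -0.06. Of 12 other responsive genes, 1 was lower at that level, Gadd45b, a stress gene, at -0.36, with a median of -0.08. The differences between lists were not tested.

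Of 8 genes of the aryl hydrocarbon receptor, another xenobiotic receptor of the liver, 2 were higher at an unadjusted p under 0.05. The share over all genes was 2.94%. Cyp1a2, 1 of the 2, is also counted among the phase I targets above. Cyp1a2 had values of 11541, 10431 and 13610.4 in control and 25201, 14904 and 14585 in Blnc1 LKO livers, and Cyp1a1 of 62.5, 61.8 and 52.2 against 96.4, 81.7 and 76.0. For both, every Blnc1 LKO liver lay above every control liver, which held for 5.35% of all genes. Their log2 fold changes were 0.58 and 0.52 (adjusted p = 0.824 for both, limma). The median of the list was -0.03.

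Since Cyp2b9, Cyp2b13, Cyp3a16 and Cyp3a44 are known for sex differences, liver genes of both sex patterns were set beside them. Of 20 male-predominant genes, 19 had a log2 fold change above 0, and the median was 0.66. At an unadjusted p under 0.05, 15 were higher and 1 lower, against 2.94% and 2.74% of all genes. Since the list was chosen with earlier results of these data known, these counts are a description. Susd4 (1.14) and Nudt7 (0.55) were past an adjusted p of 0.05 in DESeq2 alone. Hsd3b5, a steroid dehydrogenase of male liver, had values of 20.5, 120.4 and 15.98 in control mice and 2568, 209 and 363 in Blnc1 LKO mice. Of 19 female-predominant genes, 9 were above 0 and 10 below, with a median of -0.12, and both genes at an unadjusted p under 0.05, Cyp17a1 (-1.19) and Nipal1 (-1.10, past the adjusted p in DESeq2), were lower in every Blnc1 LKO liver. Control replicate 2, the lowest liver for the members, was the highest control liver for the male-predominant list, at 0.48 from the control mean, and Blnc1 LKO replicate 1 was the highest of all at 1.52. In the female-predominant list, control replicates 1, 2 and 3 stood at 0.04, -0.20 and 0.16, the order of the members, and Blnc1 LKO replicates 1, 2 and 3 at 0.44, -0.28 and -0.23. Their part in the values of the members was not tested.

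**Figure D5:**
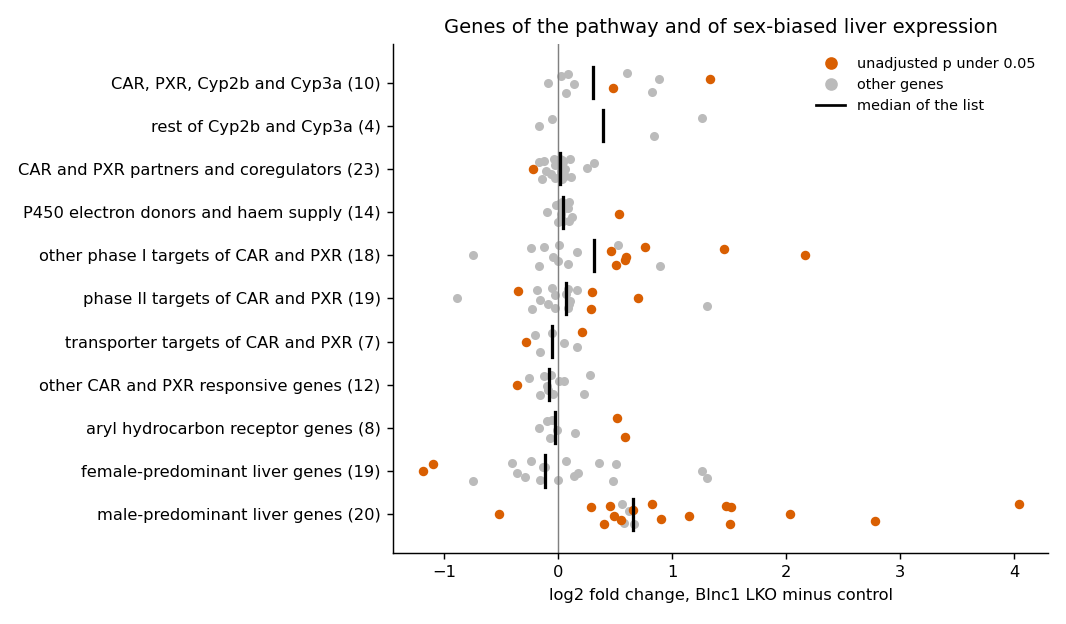
log2 fold change, Blnc1 LKO minus control, of each gene in 11 lists, with the number of genes tested in brackets, a bar at the median and colour for an unadjusted p under 0.05. The medians of the 10 members and of other phase I targets are both 0.31, and that of male-predominant genes is 0.66. That of the 4 remaining Cyp2b and Cyp3a genes is 0.39, and the other 7 medians lie between -0.12 and 0.06. Of those 4 genes, only Cyp2b19 and Cyp3a41a, with at most 3 and 7 reads in any liver, are above 0. Cyp3a59 and Cyp3a57 are at -0.17 and -0.05.

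Markers of liver cell types were read for the same livers, from lists also chosen with earlier results of these data known. Hepatocyte markers had a median log2 fold change of 0.02 over 12 genes and summed values of 5680000 to 6266800 in control and 5581100 to 6714200 in Blnc1 LKO livers. Pericentral hepatocyte markers, of the zone where Cyp2b and Cyp3a enzymes are mostly made, were above 0 for 12 of 12 genes with a median of 0.19. Over all genes 49.6% were above 0. Of the 12, 3 were higher at an unadjusted p under 0.05 with limma, against 2.94% of all genes. Their sum ranged from 831990 to 888360 in control and from 914950 to 1222100 in Blnc1 LKO livers, most of it from Cyp2e1. Cyp2e1 passed an adjusted p of 0.05 in DESeq2 (0.0324) but not in limma (0.851) or edgeR (0.662). Periportal markers had 10 of 12 genes below 0 and a median of -0.17, with 2 lower at an unadjusted p under 0.05, against 2.74% of all genes. By the mean of the pericentral list, Blnc1 LKO replicates 1, 2 and 3 stood at 0.37, 0.02 and 0.25 from the control mean, the same order as for the members, whereas control replicates 1, 2 and 3 stood at 0.03, -0.01 and -0.02, without the low value of replicate 2 seen for the members. The part of zonation in the values of the members was not tested.

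Over all genes, 2.94% were higher and 2.74% lower at an unadjusted p under 0.05. Of 10 stellate cell and myofibroblast markers 4 were lower at that level with a median of -0.10. These were Col1a1, Acta2, Col1a2 and Col3a1, genes of collagen and smooth muscle actin, with log2 fold changes from -0.61 to -0.47, and each also passed an adjusted p of 0.05 in DESeq2 (from 0.00462 to 0.0247) but not in limma or edgeR. The sum of the list ranged from 116350 to 128870 in control and from 98178 to 116990 in Blnc1 LKO livers. Endothelial markers summed to 33246 to 34810 against 31643 to 33017, with 3 of 8 lower at an unadjusted p under 0.05. Of 14 macrophage markers 5 were higher and 1 lower at that unadjusted level, with sums of 124820 to 134070 against 124310 to 138860. Cholangiocyte and lymphocyte markers had medians of -0.04 and -0.01 with none of 7 and none of 10 at that level. Of 4 small intestine markers 1 was lower at it, Muc2, with 2 to 7 reads per liver. No marker of these lists was at 0 in every liver. The part of these cells in the values of the members was not tested.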

How the data were processed

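Libraries had been made from total RNA of 6 mouse livers with a kit that selects polyA RNA and does not mark strand. Per the labels and the study's methods, the authors used STAR with the mm10 genome for alignment, HTSeq for counting and DESeq2 for the comparison. The versions, the annotation and the strand setting are not given in the sources used here. Each deposited signal value is a gene's reads over the size factor of its liver, for 17460 symbols. All values were whole multiples of 1 read per liver within a tolerance of 0.01 reads, so the reads were recovered for the count models. The columns of the table carry the letters WT or KO and a number, and each was taken as the control or LKO liver of that number.

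The main test was limma 3.58.1 in R 4.3.3 (lmFit, eBayes with a trend) on log2(value + 1), without covariates. Genes entered if 3 or more livers had a value of 1 or more, which left 17297, and p-values were adjusted over all of these by Benjamini-Hochberg with a threshold of 0.05. edgeR 4.0.16, DESeq2 1.42.0, a pseudocount of 0.1, other filters, the replicate number as a block and leaving out each liver were alternatives. The fits were tested on simulated data. Members and gene lists were chosen with earlier results of these data known. The text names all members, the other listed Cyp2b and Cyp3a genes, the 4 genes of smallest p in a list or fewer, and the 5 genes most correlated with each of Nr1i2, Nr1i3, Cyp2b10 and Cyp3a11. Alb, Xist, Tomm40l, Paqr9 and Hamp are named outside this rule. Promoter windows and gene models came from RefSeq (GRCm38.p6) and GENCODE M21, and shared 50-base windows were counted over its transcripts. The labels only number the livers of a group, so p-values measure the spread between these samples, which may be technical. Counts of 2 livers of a group differed by a chi-square per degree of freedom of 20.8 to 70, where counting noise alone gives 1, so they differed by more than counting noise. That value does not show that the livers are of separate animals.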

Additional observations from a re-analysis of the deposited data

How the results depend on the processing

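The count of genes called was 1 with limma and 2 without the filter, 0 with the replicate block in limma, 2 with edgeR, 84 with DESeq2 and 57 with DESeq2 and the block, and from 0 to 13 as each liver was left out. No member was past an adjusted p of 0.05 in these fits except Cyp3a11 with DESeq2 and the replicate block, which called 1 member (log2 fold change 0.48, adjusted p = 0.00138). Deviations of same-numbered livers correlated at -0.0584, -0.0191 and -0.107, and those of livers with different numbers at -0.0473 to 0.105. These values showed no pairing by number, but with 3 livers per group they cannot exclude it. With the block in limma the members at an unadjusted p under 0.05 numbered 3, against 2 without it and 0 to 3 as each liver was left out. Of 140 alternative fold changes of members, 129 kept their direction and side of the threshold, 10 took the opposite sign and 1 passed the threshold. Cyp2b9 took -0.055 with edgeR, -0.069 with library size as the only scaling, -0.045 with DESeq2 and -0.46 to 0.47 as each liver was left out. The same range was -0.011 to 0.23 for Nr1i3, -0.069 to 0.13 for Cyp3a13 and -0.11 to 0.23 for Cyp3a25. The summed Cyp2b members ranged from -0.40 to 0.53 and the summed Cyp3a members from 0.23 to 0.55. The 12 ratios without overlap stayed 12 with a pseudocount of 0.1 and with none, alternatives chosen after seeing the data. The cause of these changes was not tested. Cyp2b10, Cyp3a16 and Cyp3a44 rest on 4 to 32 reads per liver, which limits what can be detected for them.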
